A study of Mus musculus with 6 samples.

Results

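The genes described here are 6 STAT transcription factors (Stat2, Stat3, Stat4, Stat5a, Stat5b and Stat6) and 4 genes of the SOCS family of feedback inhibitors (Socs1, Socs2, Socs3 and Cish), measured in sorted mouse bone marrow cells. They are 10 of 19057 named genes on the array, taken as every array probe whose platform gene symbol, or a synonym of it, names one of these 10 genes, which gave 18 of the 45281 probes on the array, 13 for STAT genes and 5 for SOCS genes; 0 of the 18 came in through a synonym alone. The study compared 2 bone marrow populations. The Ly6C low cells are the granulocytic progenitors (GP); the Ly6C high cells are called monocyte-like precursors of granulocytes (MLPG). Each group had 3 arrays, numbered 1 to 3. Monocytes of the classical kind carry much Ly6C on their surface. The sources used here give no strain, genotype, age or treatment of the mice. They also do not say whether the 3 samples of a group are separate animals, so a p-value reflects how these samples vary, which could be technical.

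STAT proteins wait in the cytoplasm until a cytokine receptor and its attached JAK kinase phosphorylate them, after which they pair, enter the nucleus and bind DNA. SOCS proteins are made in response to that signal and shut it off, by blocking the kinase, by competing for the receptor or by marking receptor complexes for destruction. In myeloid cells Stat3 is the main factor downstream of the granulocyte growth factor G-CSF and of IL-6, and Socs3 is its feedback inhibitor. Stat5a and Stat5b act downstream of GM-CSF, IL-3 and IL-5, and Cish and Socs2 are their classic feedback targets.

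The promoter sequences of the 3 SOCS genes with a probe above the filter (defined below) are shown first, because these genes are known as direct targets of the STAT factors they restrain. They are RefSeq windows on the build GRCm38.p6, 250 bases before and 50 bases from an annotated transcript start on, written 5′ to 3′ on the strand of the gene. The Cish window is chr9:107296409-107296708 (plus strand), the Socs3 window chr11:117969317-117969616 (minus strand) and the Socs1 window chr16:10785487-10785786 (minus strand). Capitals mark matches to the general STAT site TTCNNNGAA and to the interferon-response site, GAAA and GAAA with 2 bases between, searched on both strands.
Cish: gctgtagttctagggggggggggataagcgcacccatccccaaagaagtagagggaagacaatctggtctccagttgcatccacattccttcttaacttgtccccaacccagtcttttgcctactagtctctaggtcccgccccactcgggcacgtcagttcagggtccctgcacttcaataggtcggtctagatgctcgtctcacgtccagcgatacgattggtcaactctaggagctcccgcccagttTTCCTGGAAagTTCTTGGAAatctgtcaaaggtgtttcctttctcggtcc
Socs3: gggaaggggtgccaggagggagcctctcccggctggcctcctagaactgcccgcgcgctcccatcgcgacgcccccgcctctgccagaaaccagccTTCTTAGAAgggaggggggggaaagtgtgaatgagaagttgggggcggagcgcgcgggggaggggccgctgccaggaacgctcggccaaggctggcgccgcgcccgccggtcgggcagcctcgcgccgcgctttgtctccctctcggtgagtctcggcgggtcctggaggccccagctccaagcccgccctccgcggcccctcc
Socs1: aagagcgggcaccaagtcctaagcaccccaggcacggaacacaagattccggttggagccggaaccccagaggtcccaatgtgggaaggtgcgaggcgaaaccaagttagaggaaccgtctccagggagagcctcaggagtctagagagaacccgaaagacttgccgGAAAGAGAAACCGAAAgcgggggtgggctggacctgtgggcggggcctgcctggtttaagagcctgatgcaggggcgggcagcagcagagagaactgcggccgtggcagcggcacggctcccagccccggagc
The Cish window held 2 matches to TTCNNNGAA, TTCCTGGAA at bases 1 to 9 and TTCTTGGAA at bases 12 to 20 counted from the start. The Socs3 window held 1, TTCTTAGAA, at bases -154 to -146. The Socs1 window held 2 matches to the interferon-response site that overlap each other, at bases -83 to -74 and -77 to -68. Of 32851 such windows in the mouse table, 8.30% held TTCNNNGAA, 0.457% held it at least 2 times and 3.44% held the interferon-response site. Windows were found for 9 of the 10 genes, 12 windows in all. Of the 9 genes 2, Cish and Socs3, had TTCNNNGAA, against 9.55% of the 27025 genes with a window. The interferon-response site was in 3 of the 9, against 3.99% of those genes. Besides Socs1 they were Stat2 (TTTCAGTTTC) and Stat4 (GAAAGTGAAA, in 1 of its windows). TTC and GAA with 4 bases between, the wider form that STAT6 prefers, was in the Stat2 window alone (TTCCCTAGAA), against 6.95% of all windows. A match of letters describes the sequence and is not a binding site shown by these data.

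Values below are the normalized intensities deposited by the authors, with group means ± SD (n = 3), and each difference is a log2 value of MLPG minus GP. Probes bind with unequal strength, so a level is compared between groups and never between genes. No value on these arrays lies below 88.2, and with such a floor the differences of dim probes are compressed towards 0. Genes were tested with limma over 15440 features, which are the brightest kept probe of each gene, or an unnamed probe on its own; a probe was kept when its mean log2 value exceeded the median of all probes, 7.48. The threshold for a call was 0.05 after Benjamini-Hochberg adjustment. Of the 10 genes, 8 had a kept probe, and 13 of the 18 probes were kept; Stat5b and Socs2 had dim probes only and were read from a fit over all 45281 probes.

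With all 6 arrays and no covariate, limma called 0 of the 8 measured STAT and SOCS genes, against a background of 0.512% of all features (79 of 15440; 0.369% lower and 0.142% higher in MLPG). Before adjustment, p was under 0.05 for 2 of the 8, Stat3 and Cish, against 14.7% of all features. Deviations of same-numbered GP and MLPG arrays from their group means were correlated, so the replicate number was also fitted as a block; Cish was then called, lower in MLPG, 1 of the 8 against 4.08% of all features (2.59% lower, 1.49% higher). In the fit over every probe without a filter, 1 of the 18 probes was called, that of Cish, against 0.426% of probes (0.267% lower). Of the 8 genes 6 lay below 0, where 48.3% of all features lay. Their median difference was -0.17, against 0.01 over all features.

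**Figure D1:**
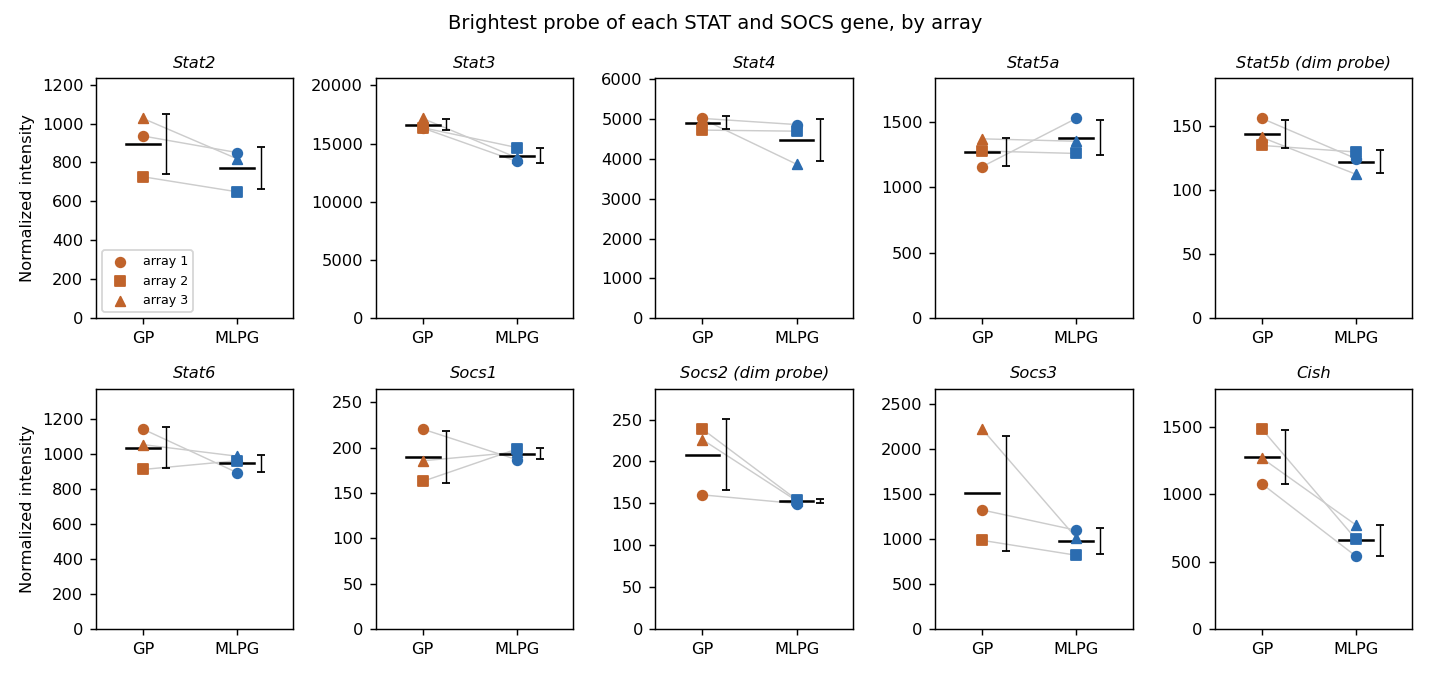
Normalized intensity (linear axis from 0) of the brightest probe of each gene on the 6 arrays, by group; symbols mark array numbers, grey lines join arrays with the same number, black lines are group means and bars are ± 1 SD (n = 3). Cish lies at 1079 to 1487 on the GP arrays and at 541 to 773 on the MLPG arrays, while the groups overlap for Stat2, Stat4, Stat5a, Stat6, Socs1 and Socs3.

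Cish, which binds activated cytokine receptors and blocks their access to STAT5, had the widest difference of the 10 genes. Its 1 probe read 1079, 1487 and 1271 on GP arrays 1 to 3 and 541, 667 and 773 on MLPG arrays 1 to 3. Every GP array was above every MLPG array. The GP mean was 1279 ± 204 and the MLPG mean 660 ± 116 (n = 3), a 1.94-fold difference and -0.96 on the log2 scale, with a 95% interval of -1.33 to -0.58. In limma the adjusted p was 0.056, just outside the threshold, and 0.0063 with the replicate block (interval -1.21 to -0.71). Same-numbered arrays differed by -1.16 to -0.72, lower in MLPG in 3 of 3 pairs. Groups that do not overlap were found for 20.4% of all features (9.66% lower in MLPG), so the separation of the arrays alone does not set Cish apart. By size in either direction, Cish ranked 172 of the 15440 features, and 198 of them (1.28%) differed by at least 0.9, a cut just under the Cish value. These are sorted populations measured in bulk, so fewer cells that express a gene and less RNA per cell cannot be told apart, here and below.

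The Cish call depended on the setting, and 8 of the 19 settings called it. Among the alternatives without the block, the adjusted p in limma was 0.036 with no filter on dim probes and 0.029 with every probe tested on its own. It was 0.023 with array quality weights, 0.045 with a trended prior and 0.044 without GP replicate 1. The limma adjusted p was 0.056 with cyclic loess normalization and 0.073 with an offset subtracted. It was 0.058 with the filter at percentile 60 and 0.059 with the mean of a gene's kept probes. It was 0.052 without GP replicate 2 and 0.155 without GP replicate 3, while leaving out an MLPG array gave 0.186, 0.156 and 0.133 for replicates 1, 2 and 3. With the block it was 0.0022, 0.00056 and 0.082 once both arrays numbered 1, 2 or 3 were left out. Those settings were chosen after seeing the data and called 465, 2056 and 6 of the 15440 features. The difference itself stayed between -1.08 and -0.82 over the 18 alternatives run.

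**Figure D2:**
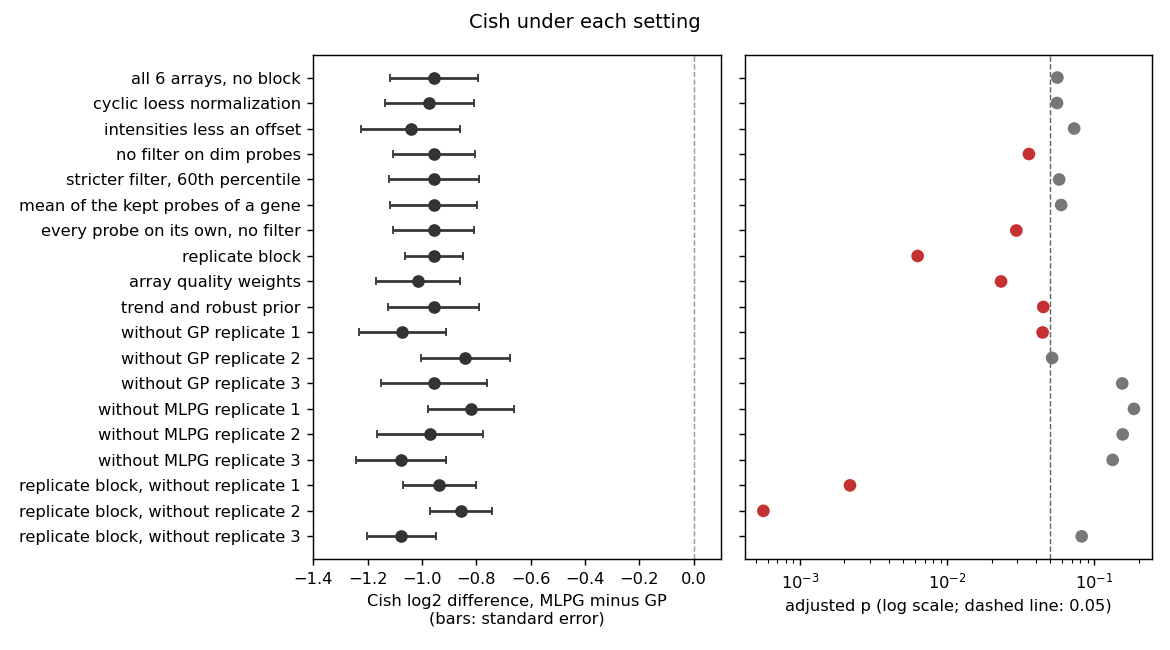
The Cish log2 difference with its standard error (left) and its adjusted p on a log axis (right) in each of 19 settings, with red points under 0.05. The difference stays between -1.08 and -0.82 in these settings, and the adjusted p falls on both sides of 0.05, from 0.00056 to 0.186.

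Of 7 measured eosinophil markers, 5 were called lower in MLPG (6 with the block), with differences from -5.18 to -0.29, and the summed intensity of the list was 56584 to 133506 on the GP arrays and 4596 to 7715 on the MLPG arrays. Prg2, the eosinophil major basic protein, read 44668, 71154 and 67717 in GP and 2888, 5726 and 3473 in MLPG. Within GP, array 1 was lowest and array 2 highest for both Prg2 and Cish. Within MLPG, array 1 was lowest for both genes, while array 2 was highest for Prg2 and array 3 for Cish. Of 7 basophil and mast cell markers 1, Gata2, was called lower, and 5 with the block. Their summed intensity was 29556 to 43265 in GP and 17105 to 26485 in MLPG. Most of that sum was Hdc, which read 40278, 36934 and 26270 in GP and 24576, 24576 and 15505 in MLPG. The part of eosinophils, basophils and mast cells in the Cish difference was not tested.

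Socs2, which limits growth hormone and STAT5 signalling, was dim. Its brighter probe read 160, 239 and 226 on GP arrays 1 to 3 and 150, 154 and 153 on MLPG arrays 1 to 3. It lay at percentile 49.1 of all probes, just below the filter, and the groups did not overlap, although GP array 1 lay close to the MLPG arrays. The difference was -0.43 (interval -0.74 to -0.12; adjusted p = 0.30 in limma over all probes, 0.071 with the block). Without GP replicate 1 it was -0.61 (adjusted p = 0.025), and with the block and without the arrays numbered 1 it was -0.59 (adjusted p = 0.0031). Of 15 settings, these 2 called Socs2, both without GP array 1, and the second was chosen after seeing the data. The dimmer Socs2 probe lay at percentile 9.35 and differed by -0.08.

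Socs3, the feedback inhibitor of G-CSF and IL-6 receptor signalling, varied more within GP than any other member. Its 1 probe read 1319, 982 and 2216 on GP arrays 1 to 3 and 1094, 817 and 1011 on MLPG arrays 1 to 3. GP array 3 was the highest, GP array 1 also lay above the MLPG arrays, GP array 2 lay within their range, and array 2 was the lowest in both groups. The GP mean was 1506 ± 638 and the MLPG mean 974 ± 142, which differ by -0.56 (interval -1.18 to 0.07; limma adjusted p = 0.39, or 0.12 when blocked). Without GP replicate 3 the difference was -0.24, and without GP replicate 2 it was -0.82. Same-numbered arrays differed by -0.27, -0.27 and -1.13. In the block without the arrays numbered 2 Socs3 was called, at -0.70 (limma adjusted p = 0.016). That setting was chosen after seeing the data and called 2056 of the 15440 features. It was the only 1 of 19 settings that called Socs3.

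Socs1, the inhibitor of JAK kinases that interferon induces, showed no difference that could be read at this brightness. Its probe read 220, 163 and 185 in GP and 187, 198 and 195 in MLPG, near the median of all probes, 179.3. The difference was 0.04, and the 95% interval ran from -0.24 to 0.32, so differences within it cannot be told from 0 here (adjusted p = 0.92, limma). Its sign turned, to -0.065, without GP replicate 2.

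The STAT factors differed by -0.25 to 0.12 over the 5 kept genes. Among those 5 the 95% interval left out 0 for Stat3 alone. Its brightest probe read 16343, 16371 and 17169 on GP arrays 1 to 3 and 13476, 14665 and 13791 on MLPG arrays 1 to 3, and all GP arrays were above all MLPG arrays. The means were 16628 ± 469 and 13978 ± 616, 1.19-fold higher in GP, a difference of -0.25 (interval -0.44 to -0.06). It was not called (limma adjusted p = 0.24, or 0.16 when blocked), and stayed between -0.30 and -0.22 over 18 alternatives.

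Stat3 was read by 2 further kept probes. The middle one averaged 6651 ± 895 in GP against 5521 ± 127 in MLPG, a difference of -0.26, and the dimmest, annotated to another RefSeq transcript of the gene, was at 1484 ± 16.4 and 1345 ± 98.5, a difference of -0.14. GP and MLPG arrays did not overlap on any of the 3 probes, and the 3 probes share the same 6 RNA samples. Over all 18 probes of the 10 genes, 6 had groups that did not overlap, against 15% of all probes on the array: the 3 of Stat3 and 1 each of Cish, Socs2 and Stat5b, all lower in MLPG. Counted by gene over the 8 with a kept probe, it was 2, Stat3 and Cish, against 20.4% of all features (9.66% lower in MLPG).

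**Figure D3:**
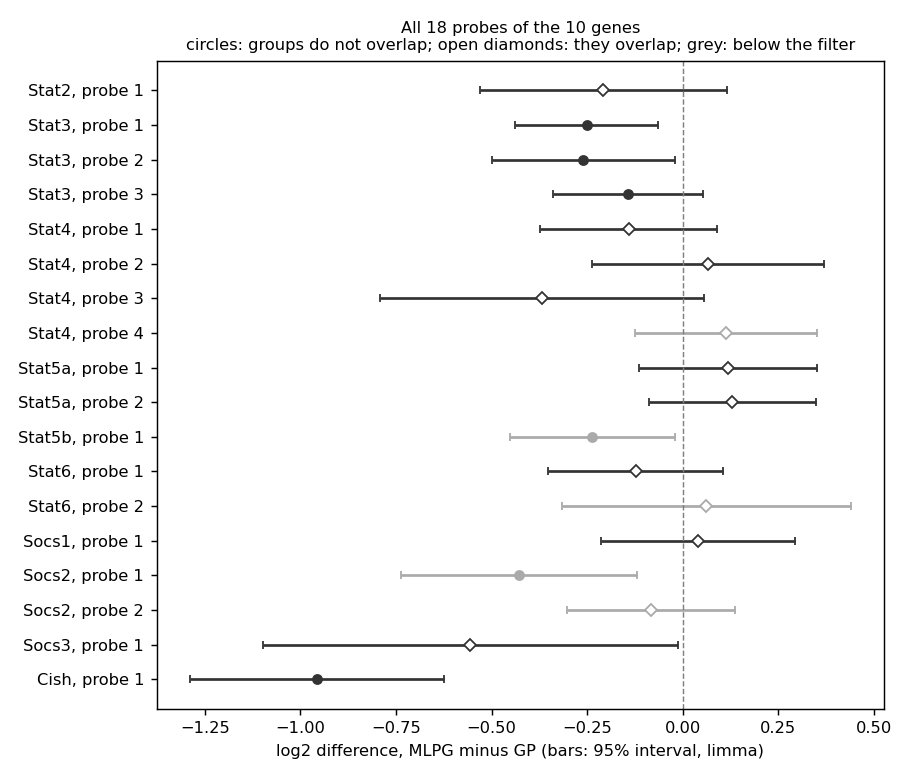
The log2 difference (MLPG minus GP) of all 18 probes with its 95% interval from the limma fit over every probe; filled circles have groups that do not overlap, open diamonds have groups that overlap, and grey marks probes below the filter. Cish lies at -0.96, the 3 Stat3 probes between -0.26 and -0.14, and the 4 Stat4 probes on both sides of 0.

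Stat5a and Stat5b, near-identical factors whose genes lie side by side next to Stat3, were read by 3 probes. Stat5a read 1159, 1279 and 1372 in GP and 1529, 1260 and 1354 in MLPG on its brighter probe, with overlapping groups and a difference of 0.12 (interval -0.13 to 0.37; adjusted p = 0.67, limma). The dimmer Stat5a probe differed by 0.13. In the block without the arrays numbered 1 the Stat5a difference was -0.021. The Stat5b probe read 156, 135 and 141 in GP and 125, 130 and 112 in MLPG, at percentile 12.96 of all probes. Its difference was -0.24 (adjusted p = 0.44 in limma over all probes), and whether either gene's probes read the other transcript was not tested.

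Stat2, the partner of type I interferon signalling, read 936, 727 and 1026 in GP and 851, 649 and 819 in MLPG. It was lower in MLPG in 3 of 3 same-numbered pairs while the groups overlapped, with a difference of -0.21 (interval -0.57 to 0.15; limma adjusted p = 0.60, or 0.24 when blocked). Array 2 was the lowest of each group for Stat2, as it was for Socs3. Stat6, which carries the IL-4 and IL-13 signal, read 1145, 913 and 1056 in GP and 895, 963 and 989 in MLPG, a difference of -0.12 (interval -0.37 to 0.12; adjusted p = 0.65, limma). Its dimmer probe, below the filter, differed by 0.062. Leaving out single arrays moved the Stat6 difference between -0.21 (without GP replicate 2) and -0.050 (without GP replicate 1), and the Stat2 difference between -0.35 (without GP replicate 2) and -0.087 (without MLPG replicate 2).

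Stat4, the IL-12 factor best known from T and NK cells, was read by 4 probes that went different ways. The brightest read 5020, 4726 and 5004 in GP and 4865, 4699 and 3870 in MLPG, a difference of -0.14 (interval -0.39 to 0.11; adjusted p = 0.60, limma), and without MLPG replicate 3 it was -0.040. The other 3 probes differed by 0.07, -0.37 and 0.11. No Stat4 probe separated the groups. The T and NK cell markers Cd3d (mean 328 in GP and 193 in MLPG) and Klrb1c (203 and 197) were dim, and Nkg7 was at 35905 ± 5525 and 43089 ± 3392. Cd3d read 363, 310.1 and 312 in GP and 164, 193 and 220.3 in MLPG, a difference of -0.78 (limma adjusted p = 0.054, or 0.021 when blocked).

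Beyond the 10 genes, 12 lists of JAK-STAT genes held 124 genes, of which 90 were measured. Limma called 1 of the 90, the interleukin 1 receptor antagonist gene Il1rn, which is 1.11% against the 0.512% of all features. With the block 4 were called, 4.44% against 4.08%: Il6st and Il10ra higher in MLPG, and Il1rn and Oasl2 lower. The median difference of the 90 genes was -0.05.

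**Figure D4:**
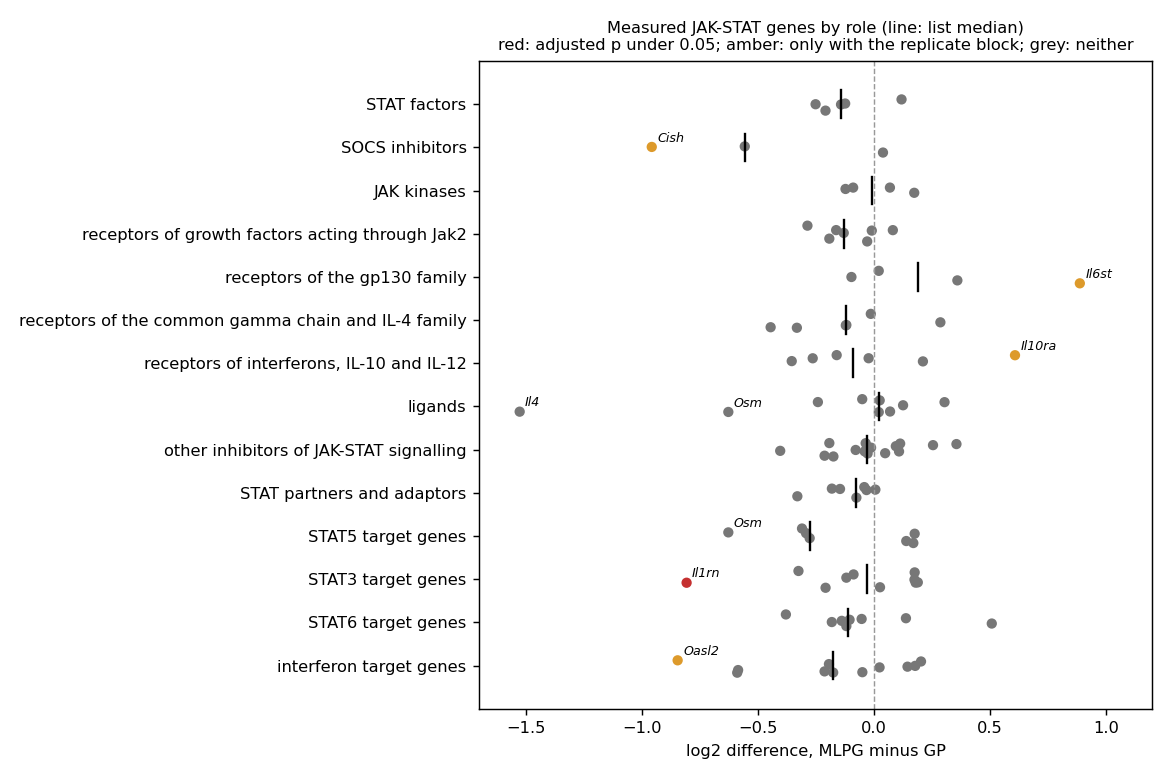
The log2 difference (MLPG minus GP) of each measured JAK-STAT gene, by role; each point is 1 gene, the black line is the list median, red marks an adjusted p under 0.05, amber one under 0.05 with the replicate block only, and grey neither. Il1rn is the 1 red point, at -0.81, and Il6st, Il10ra, Cish and Oasl2 are amber.

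All 4 JAK kinases were measured and 0 were called (limma; blocking by number also called 0, and 0 had an unadjusted p under 0.05). Tyk2, the kinase of interferon and IL-12 receptors, read 5481, 5533 and 5615 in GP and 6260, 6013 and 6496 in MLPG, a difference of 0.17 with groups that did not overlap (adjusted p = 0.38). Jak1, Jak2 and Jak3 differed by -0.12, 0.07 and -0.09.

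Among receptors, the 2 chains of the IL-6 receptor had higher means in MLPG on their brightest probes, and of 4 receptors of the gp130 family 0 were called (limma, 2 at an unadjusted p under 0.05, 1 with the block). Il6st, the shared signalling chain gp130, read 193, 388 and 268 in GP and 499, 549 and 463 in MLPG, a difference of 0.89 (limma adjusted p = 0.16, or 0.025 when blocked). All MLPG arrays were above all GP arrays, and a dimmer Il6st probe, below the filter, differed by 0.10. Il6ra, the chain that binds IL-6, averaged 1833 ± 180 in GP against 2345 ± 77.8 in MLPG, a difference of 0.36 (limma adjusted p = 0.18, or 0.072 when blocked), and its 2 dimmer probes differed by 0.35 and 0.29. Il10ra, the IL-10 receptor chain, read 436, 535 and 453 in GP and 793, 883 and 534 in MLPG; MLPG array 3 lay at the level of GP array 2, and the difference was 0.61 (limma adjusted p = 0.21, or 0.045 when blocked).

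Of 7 measured receptors of growth factors that act through Jak2, 0 were called (limma, 1 at an unadjusted p under 0.05, 0 with the block) and their differences lay between -0.29 and 0.08. Csf3r, the G-CSF receptor, averaged 10223 ± 2424 in GP against 9181 ± 792 in MLPG, a difference of -0.13 that turned to 0.024 without GP replicate 1. Il5ra, the IL-5 receptor chain of eosinophils, was dim, at 188, 218 and 194 in GP and 155, 156 and 182 in MLPG, a difference of -0.29 with groups that did not overlap (adjusted p = 0.27). Of 6 receptors of the common gamma chain and IL-4 family 0 were called (limma, 1 at an unadjusted p under 0.05, 0 with the block), with Il7r, the IL-7 receptor, at -0.33 and Il15ra, the IL-15 receptor, at 0.29. Among 6 interferon, IL-10 and IL-12 receptor chains, Ifngr2 averaged 3049 ± 345 in GP against 2381 ± 198 in MLPG (difference -0.35, adjusted p = 0.23) and Ifngr1 was at 5882 ± 684 and 6783 ± 308 (0.21, adjusted p = 0.42).

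Of 9 measured ligands 0 were called (limma, 2 at an unadjusted p under 0.05, 0 with the block). Il4, the ligand of Stat6 signalling, read 179, 674 and 625 in GP and 164, 144 and 134 in MLPG. GP array 1 lay near the MLPG level, and the difference was -1.53 (limma adjusted p = 0.19, or 0.065 when blocked); without GP replicate 1 it was -2.14 (adjusted p = 0.00024). On the same arrays Prss34, a basophil protease, read 1074, 2930 and 1171 in GP and 429, 542 and 281 in MLPG; the eosinophil gene Ear6 read 6131, 34740 and 32222 in GP and 382, 707 and 527 in MLPG. Within GP, Il4, Ear6 and Prss34 were each lowest on array 1 and highest on array 2, and on array 3 Prss34 lay near its array 1 value. The basophil and mast cell markers did not share 1 order. Gata2 read 440, 1012 and 642 on GP arrays 1 to 3, and Hdc 40278, 36934 and 26270. The part of either cell type in the Il4 values was not tested. Osm, a cytokine of the IL-6 family and itself a STAT5 target, read 17918, 16626 and 15155 in GP and 11078, 14539 and 7614 in MLPG. Its groups did not overlap on this probe, and the difference was -0.63 (limma adjusted p = 0.24, or 0.060 when blocked). A dimmer kept Osm probe averaged 617 ± 130 in GP against 473 ± 105 in MLPG, a difference of -0.38 with groups that overlapped.

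Of 16 other inhibitors of the pathway 0 were called (limma, 2 at an unadjusted p under 0.05, 0 with the block). Socs7 averaged 208 ± 9.46 in GP against 267 ± 27.8 in MLPG (0.36, adjusted p = 0.19) and Pias3, an inhibitor of STAT3, was at 2058 ± 435 and 1549 ± 263 (-0.40, adjusted p = 0.34). Of 7 partners and adaptors of the STATs 0 were called (limma, 0 at an unadjusted p under 0.05, 0 with the block), and the coactivators Crebbp and Ep300 differed by -0.33 and -0.18. Of 7 STAT5 targets 0 were called (limma, 1 at an unadjusted p under 0.05, 0 with the block), with Pim2, Ccnd2 and Bcl2l1 at -0.28, -0.29 and 0.17.

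Of 10 STAT3 targets 1 was called. Il1rn read 556, 442 and 465 in GP and 284, 307 and 245 in MLPG, 1.75-fold higher in GP, a difference of -0.81 (limma adjusted p = 0.042, or 0.013 when blocked). The 3 dimmer Il1rn probes differed by -0.13, -0.14 and 0.06, and with the mean of its kept probes the Il1rn difference was -0.47 and its call was lost (adjusted p = 0.0995). The call was also lost without GP replicate 1 (0.065) or 3 (0.126), without MLPG replicate 1 (0.169), 2 (0.091) or 3 (0.164), and with the block when the arrays numbered 3 were left out (0.21). Mcl1, Junb and Cebpb, the targets next in order of p, differed by -0.21, -0.32 and 0.18.

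Of 8 STAT6 targets 0 were called (limma, 1 at an unadjusted p under 0.05, 0 with the block), and 6 of the 8 lay below 0 with a median of -0.11. Fcer2a, the low-affinity IgE receptor, had the smallest p, at -0.18 (adjusted p = 0.34), and Clec10a, a lectin of macrophages, was at 0.51 (adjusted p = 0.35). Of 11 interferon targets 0 were called, with 2 at an unadjusted p under 0.05, and 7 of the 11 lay below 0 with a median of -0.18. Irf7 averaged 420 ± 94.2 in GP against 276 ± 31.5 in MLPG (-0.59, limma adjusted p = 0.19, or 0.052 when blocked), and Rsad2 was at 502 ± 101 and 333 ± 52.1 (-0.58, 0.20 and 0.11). Oasl2 read 1983, 1011 and 3425 in GP and 1231, 709 and 1357 in MLPG (-0.85, limma adjusted p = 0.40, or 0.028 when blocked), and its dimmer probes differed by -0.18 and -0.06. GP array 3 was the highest of the 6 arrays and MLPG array 2 the lowest for Oasl2, as they were for Socs3.

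**Figure D5:**
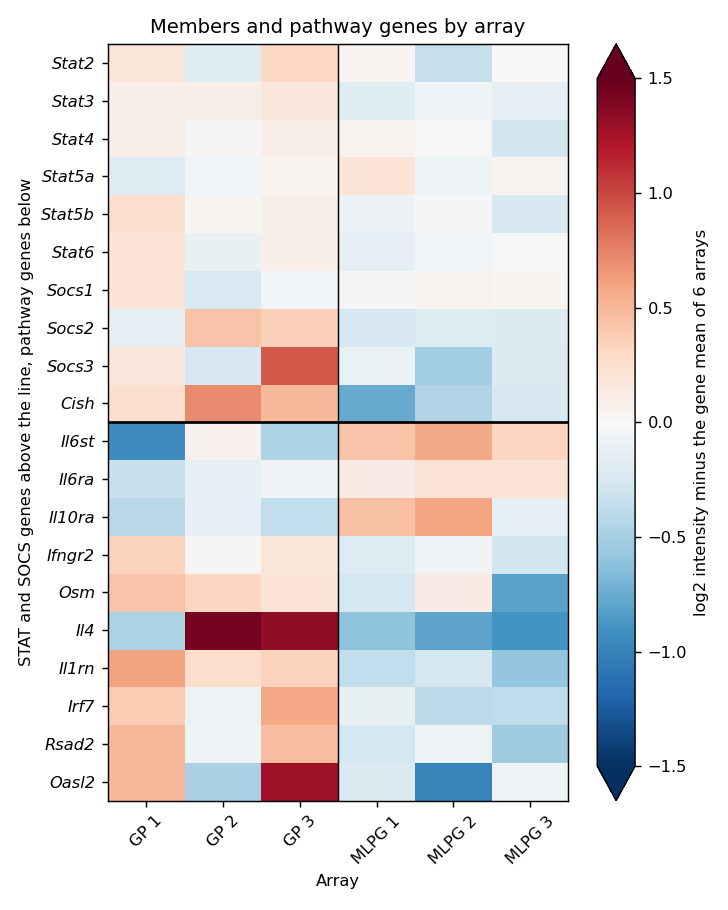
Log2 intensity of the 10 genes (brightest probe, above the line) and of 10 pathway genes (below it) on the 6 arrays, each as the deviation from that gene's own mean over the arrays. Cish changes from red in GP to blue in MLPG on every array, Il6st is blue on GP arrays 1 and 3 and red on the MLPG arrays, and GP array 3 stands out for Socs3 and Oasl2.

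The genes whose log2 values followed Cish most closely over the 6 arrays, of 10933 named genes compared, were S100pbp (Pearson r = 0.987), Baz2b (0.977) and Cln3 (0.974). For Stat3 they were Dusp16 (0.995), Grina (0.993) and Rpl3l (0.989), and for Socs3 they were Ro60 (0.990), Rab31 (0.985) and Eya4 (0.984). In all, 84 genes reached 0.9 for Cish, 164 for Stat3 and 96 for Socs3. With 6 arrays in 2 groups such values are a description.

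The labels were set against markers. Mpo and Elane, granule enzymes of granulocyte and monocyte progenitors, lay between 66265 and 71012 on all 6 arrays, near the top of the scale, where a difference between groups could not be read. Ly6c1, a gene of the sort antigen, averaged 35785 ± 4443 in GP against 47581 ± 5063 in MLPG, and 8 of 10 measured monocyte markers were called higher in MLPG with the block (1 without it). Of 12 mature neutrophil markers, 3 were called lower in MLPG, Mmp9, Retnlg and Fpr2, and 5 with the block. That list includes Mpo and Elane, and S100a8, Ngp and Ltf on it also lay near the top of the scale. Erythroid markers (6 measured, 0 called, 3 lower with the block) summed to 3561 to 7480 in GP and 1159 to 3230 in MLPG, and of 11 handling stress genes 0 were called (limma, 1 at an unadjusted p under 0.05), with 2 higher and 1 lower with the block.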

How the data were processed

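Each of the 6 samples was hybridized to 1 Illumina bead array after biotin labelling of its total RNA. The intensity values used were deposited by the authors. The submitters' processing notes name GenomeStudio, without a version; how the values were normalized or background-corrected is not stated there. The 6 columns share their minimum, median and maximum, so they had been quantile normalized. A second deposited table heads 12 columns by numbers that match no sample, and these were not used. Probe symbols came from the platform annotation (34885 probes with 1 symbol, 18 with several, 10378 with none); 34807 matched GRCm38.p6 genes by Entrez identifier and 0 symbols changed.

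Computed here: log2, the filter on dim probes, and limma 3.58.1 in R 4.3.3 (lmFit, eBayes) with Benjamini-Hochberg adjustment over all features. The fit was tested on simulated arrays with the spreads of this comparison, 200 of the 15440 features changed. It recovered 58% of the 50 features changed 1.5-fold and 86% of the 50 changed 2-fold. Noise was drawn independently for each simulated array, so the simulation lacked the correlation of same-numbered arrays given below. The number of arrays limits the precision. Deviations from group means correlated between same-numbered arrays at 0.38, 0.30 and 0.47, all above 0.1, so the block was run; this pairing was read from the data, not from the labels. Named genes were the 10 members, from each pathway list up to 4 with the smallest p, any JAK kinase or called gene, sort markers, and the 3 genes most correlated with each of the 3 members of smallest p. Marker genes beyond these were named after their values were seen. The members, lists and tests were chosen with earlier results of these data known.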

Additional observations from a re-analysis of the deposited data

How the results depend on the processing

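The count of called features was 79, and 146 with no filter on dim probes, 193 with every probe on its own, 220 with array quality weights and 630 with the replicate block. Leaving out 1 array gave 2 to 348. With the block and without the arrays numbered 1, 2 or 3 it was 465, 2056 and 6; this setting was chosen after seeing the data. Of the 8 genes with a kept probe 0 were called, and 1, Cish, with no filter, with every probe on its own, with array quality weights, with a trended prior and with the replicate block; without single arrays it was 0 to 1, and in the block without the arrays numbered 1, 2 or 3 it was 1, 2 and 0. Socs2, not among those 8, was called as well without GP replicate 1 and in the block without the arrays numbered 1. Of the pathway genes 1 was called, 0 with the mean of a gene's kept probes, 2 with array quality weights, 4 with the block, 0 to 4 without single arrays, and 5, 20 and 0 in the block without the arrays numbered 1, 2 or 3. With the stricter filter Socs1 had no value. Signs turned for Socs1 (-0.065 without GP replicate 2, with a range of -0.065 to 0.15 without single arrays, and -0.084 in the block without the arrays numbered 2), Stat5a (-0.021 in the block without those numbered 1), Csf3r (-0.33 to 0.024 without single arrays) and Jak3 (-0.24 to 0.076 without single arrays, 0.0050 in the block without those numbered 1). The cause was not tested. The other values of the 10 genes, 157 of 171 alternative values, kept their sign and their side of the threshold, and 11 gained a call. The probes of Socs1, Socs2 and Stat5b lie near or below the median brightness of all probes. With all 6 arrays, the block changed no call among the 10 genes other than that of Cish.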
